A study of Rattus norvegicus with 12 samples.

Results

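The IL-6 family of cytokines and its route to STAT3 were followed through 10 genes, out of 18483 in the count and FPKM matrices: the ligands Il6, Il11, Lif and Ctf1, the receptors Il6r, Lifr, Osmr and Il6st, the transcription factor Stat3 and the inhibitor Socs3. They were chosen by gene symbol, for their place in the pathway. All 10 were found in the matrices, and 9 passed the filter on low counts. Il11 did not. The cells were neonatal rat ventricular myocytes (NRVMs), cultured from Sprague-Dawley pups after density centrifugation to remove non-myocytes. The study asked how loss of Slc39a2, a zinc importer of the plasma membrane, changes these cells at rest and under hypertrophic stimulation. RNA was sequenced from 4 groups with 3 samples in each. siNeg cells received a control siRNA, and siSlc39a2 cells an siRNA of 1 sequence against Slc39a2. siNeg PE and siSlc39a2 PE cells received the same siRNAs and, 12 h later, phenylephrine (PE), an alpha1-adrenergic agonist that induces hypertrophy, for 36 h as the labels give it, whereas the culture methods of the study give a longer treatment. Every group was thus transfected, and with a single knockdown sequence an effect of that sequence on other transcripts and an effect of Slc39a2 loss cannot be told apart.

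Most IL-6 family ligands signal through receptor complexes that share gp130, the protein encoded by Il6st. IL-6 and IL-11 first bind a receptor chain of their own, whereas LIF and cardiotrophin-1 join gp130 to the LIF receptor and oncostatin M can join it to the oncostatin M receptor. Janus kinases bound to gp130 phosphorylate STAT3, which enters the nucleus and switches on genes that include Socs3, whose product blocks gp130. In the heart this pathway is known for its role in cardiomyocyte growth and survival and in the acute response to injury.

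Each library held between 24065539 and 28603854 expected counts, and 3 counts in a library equalled 0.102 to 0.118 CPM, the count scaled to the size of its library with TMM factors. Group values are the mean ± SD with n = 3, and fold changes are on the log2 scale ± SE unless a fold is named. The study's methods call the 3 samples of a group independent biological replicates, and the labels do not say how the cultures were kept apart. Fold changes and adjusted p-values are from edgeR's quasi-likelihood test over 13967 genes with Benjamini-Hochberg adjustment, and a gene was called at an adjusted p below 0.05. The targeted gene had 50, 50 and 59 counts in siNeg, 21, 11 and 2 in siSlc39a2, 95, 198 and 182 in siNeg PE and 31, 25 and 38 in siSlc39a2 PE. All knockdown libraries therefore matched their labels.

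Knockdown of Slc39a2 went with more transcript of 2 ligands and 2 receptor chains and without a called difference in Stat3 or Socs3. Il6, Lif, Osmr and Il6st were higher in siSlc39a2 than in siNeg, and none of the 9 genes tested was called lower. Of all genes tested, 22.8% were called higher and 26.4% lower in this comparison, so 4 of 9 higher and 0 of 9 lower stood beside that background. Il6 and Osmr were over 2-fold higher, where 4.57% of all genes were. The median log2 fold change of the 9 genes was 0.18, against -0.02 for all genes. With PE present, the same 4 genes were higher in siSlc39a2 PE than in siNeg PE, and Il6r, Stat3 and Socs3 were lower. The background in that comparison was 29.2% higher and 28.1% lower, Il6 and Osmr were again over 2-fold higher beside 6.03% of all genes, and the median of the 9 genes was 0.11 against 0.01 for all genes.

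The genes called with PE were partly others. In siNeg PE against siNeg, Osmr, Il6st, Stat3 and Socs3 were higher and Ctf1 was lower, beside 24% of all genes called higher and 25.7% lower. The median of the 9 genes was 0.25, against -0.01 for all genes. In knockdown cells, PE raised Osmr, Il6st and Stat3, and Ctf1, Il6r and Socs3 were lower, beside 30.7% and 29.3% of all genes. The comparisons share groups and are not independent of each other. The test of the difference itself, the interaction of knockdown and PE, called 2 of 9 genes, Il6r and Socs3, both in the negative direction, where 1.88% of all genes were called negative and 1.73% positive.

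**Figure D1:**
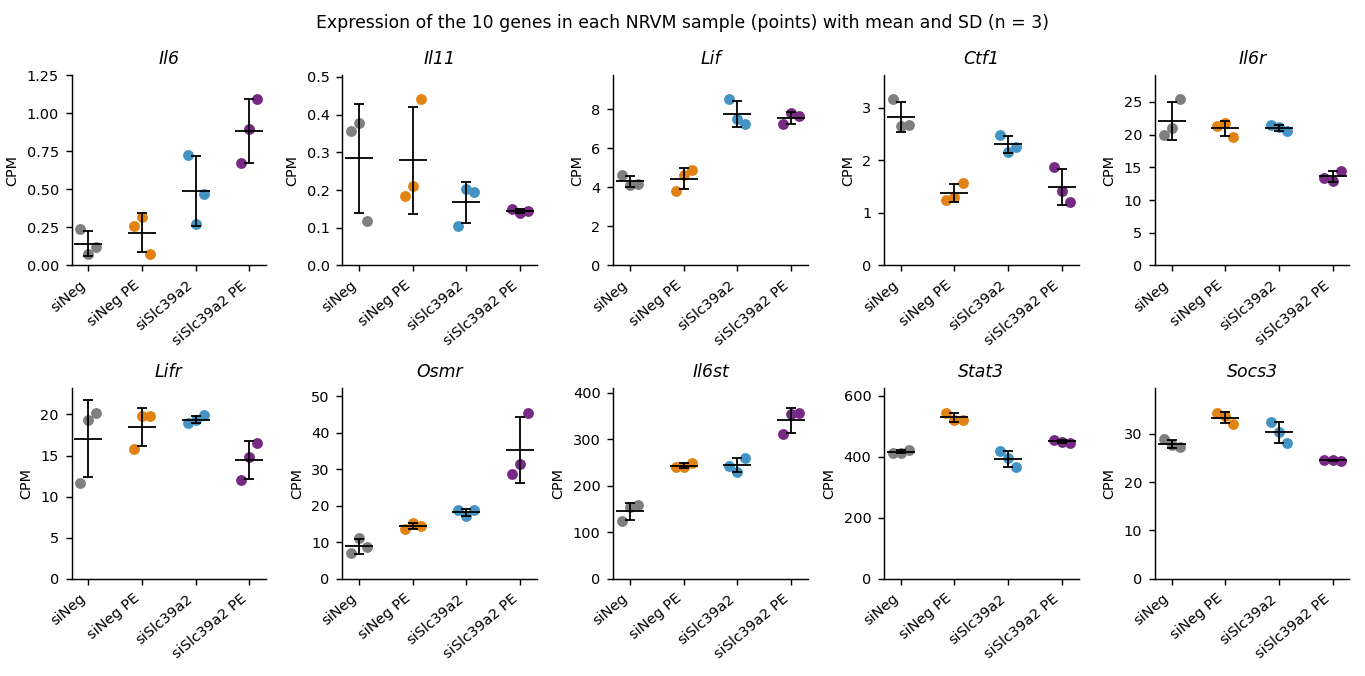
CPM (y axis, one scale per gene, starting at 0) of the 10 genes in each of the 12 samples, by group. Points are samples, and lines with bars are the mean and SD of 3 samples. Lif separates both knockdown groups from both siNeg groups, Osmr and Il6st are highest in siSlc39a2 PE, and Il6r and Socs3 are lowest there.

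**Figure D2:**
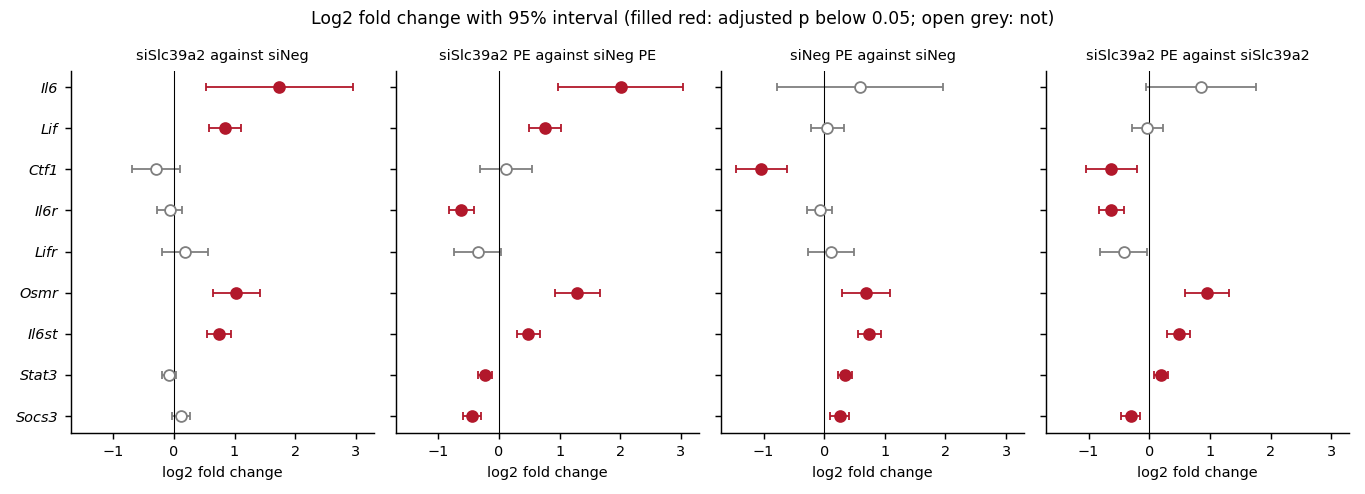
Log2 fold change (x axis) of the 9 tested genes in 4 comparisons, with 95% intervals derived from the F statistic of edgeR. Filled red points have an adjusted p below 0.05 and open grey points do not. The intervals of Il6 are the widest, and Osmr and Il6st lie to the right of 0 in all 4 panels.

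Of the ligands, Il6 (Gene ID 24498) encodes interleukin-6, the cytokine that gave the family its name. It was at the limit of detection in siNeg, with 6, 2 and 3 counts. The siSlc39a2 samples held 21, 8 and 12 counts, the siNeg PE samples 7, 9 and 2, and the siSlc39a2 PE samples 18, 26 and 30. Both knockdown groups lay above their siNeg counterparts with no overlap, and the siNeg and siNeg PE samples overlapped. The log2 fold change with knockdown was 1.74 ± 0.56 (SE) without PE (adjusted p = 0.0202) and 2.01 ± 0.48 with PE (adjusted p = 0.00302), both from edgeR. The call without PE rested on few reads. It was lost without siNeg replicate 2 (1.44, adjusted p = 0.0798 from edgeR), without siNeg replicate 3 (1.63, adjusted p = 0.0630) and without siSlc39a2 replicate 1 (1.33, adjusted p = 0.0971). When FPKM + 1 was tested with limma it was 0.39, with an adjusted p of 0.0417. PE changed Il6 by 0.59 ± 0.63 in siNeg cells and by 0.86 ± 0.42 in knockdown cells, neither of which was called (edgeR, adjusted p = 0.457 and 0.0946). Without siSlc39a2 replicate 1 the latter was 1.27 and was called, with an adjusted p of 0.0452.

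Because Il6 had the highest fold with knockdown among the 10 genes, the 250 bases before its annotated start are shown. They lie at chr4:5894576-5894825 on the minus strand of the GRCr8 assembly, as RefSeq gives them, whereas the reads were aligned to Rnor_6.0. Capitals mark the only matches to 4 motifs searched on both strands, which were chosen with the results known: the cAMP response element TGACGTCA, whose first base lies 162 bases before the start, and the NFkB motif, GGGA and TTCC with any 2 bases between them, 68 bases before it.

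Il6: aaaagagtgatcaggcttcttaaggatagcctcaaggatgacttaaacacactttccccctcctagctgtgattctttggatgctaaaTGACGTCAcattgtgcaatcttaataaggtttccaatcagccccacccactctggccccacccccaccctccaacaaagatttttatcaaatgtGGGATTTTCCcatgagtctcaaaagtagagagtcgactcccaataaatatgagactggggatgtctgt

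The NFkB motif was found in 1.08% of 33469 rat promoter windows of this length and the cAMP response element in 1.59%. The STAT motif TTCNNNGAA, found in 7.67%, matched none of the 9 genes' windows that could be searched, and Lif had no entry. The interferon-response motif, GAAA and GAAA with any 2 bases between, found in 3.41%, matched once, in the window of Il6st on the minus strand. A match describes the letters in the window and not a bound site. The lack of a match covers only the 250 bases before the annotated start, and bases elsewhere were not searched.

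Lif (Gene ID 60584) encodes leukemia inhibitory factor, which signals through the LIF receptor and gp130. Its level was 4.62, 4.13 and 4.18 CPM in siNeg, 8.50, 7.52 and 7.25 in siSlc39a2, 3.83, 4.64 and 4.88 in siNeg PE and 7.24, 7.83 and 7.64 in siSlc39a2 PE. Every knockdown sample lay above every siNeg sample, with or without PE, and within each siRNA the PE and untreated samples overlapped. Lif was 1.80-fold higher with knockdown at rest (log2 0.85 ± 0.12, adjusted p = 9.91e-05, edgeR) and 1.70-fold higher under PE (0.76 ± 0.12, adjusted p = 1.81e-04, edgeR). PE changed it by 0.05 in siNeg cells, with a 95% interval from -0.22 to 0.32, and by -0.04 in knockdown cells, from -0.29 to 0.22. The deposited FPKM of Lif varied more than its counts. Replicates 2 and 3 of siNeg PE had 132 and 133 counts but 2.25 and 3.90 FPKM, and on log2(FPKM + 1) the knockdown difference under PE was 0.45 and was not called (limma, adjusted p = 0.0564).

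Ctf1 (Gene ID 29201) encodes cardiotrophin-1, a ligand of the LIF receptor and gp130 that enlarges cultured cardiomyocytes. It was 3.16, 2.65 and 2.68 CPM in siNeg and 1.25, 1.30 and 1.58 in siNeg PE. The 2 groups did not overlap, and Ctf1 fell by 1.04 ± 0.19 on the log2 scale with PE (edgeR, adjusted p = 0.00100), the only one of the 9 genes to change over 2-fold with PE, beside 2.8% of all genes that fell this far. In knockdown cells it went from 2.49, 2.17 and 2.26 to 1.86, 1.41 and 1.20 CPM, a fall of 0.63 ± 0.19 on the log2 scale (edgeR, adjusted p = 0.0137). This call was lost without siSlc39a2 PE replicate 3 (-0.49, adjusted p = 0.0641 from edgeR). The knockdown difference was -0.29 (95% interval -0.70 to 0.11) without PE and 0.11 (-0.32 to 0.55) with PE, neither of which was called.

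Il11 (Gene ID 171040), the ligand interleukin-11, was near the limit of detection in every sample. It had 9, 10 and 3 counts in siNeg, 5, 6 and 12 in siNeg PE, 3, 6 and 5 in siSlc39a2 and 4 in each siSlc39a2 PE sample. The siSlc39a2 PE samples lay below all siNeg PE samples, but with 3 to 12 counts Il11 did not pass the filter and was not tested, and no fold change is given.

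Levels of different genes were compared per length. In FPKM, Stat3, Il6st and Socs3 were the 3 most highly expressed of the 10 genes in every group, in that order and with no overlap. In siNeg, Stat3 was at 90.8 ± 2.80 FPKM, Il6st at 18.2 ± 2.56 and Socs3 at 11.7 ± 0.800, whereas Il6r was at 4.51 ± 0.641, Lifr at 3.42 ± 0.997, Lif at 2.36 ± 0.219, Ctf1 at 2.02 ± 0.151 and Osmr at 1.80 ± 0.471. In siNeg, Il6r and Lifr, Lifr and Lif, Lif and Osmr, and Ctf1 and Osmr overlapped. Il11 and Il6 were lowest, at 0.170 ± 0.0872 and 0.143 ± 0.0777 FPKM, and did not differ beyond their spread.

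Il6st (Gene ID 25205) encodes gp130, the chain that the receptors of IL-6, IL-11, LIF and cardiotrophin-1 share. It was 124, 153 and 158 CPM in siNeg, 243, 229 and 259 in siSlc39a2, 240, 241 and 249 in siNeg PE and 310, 355 and 357 in siSlc39a2 PE. The siNeg samples were lowest, with replicate 1 below the other two, the siSlc39a2 PE samples were highest, and siNeg PE and siSlc39a2 overlapped between them. Knockdown raised Il6st 1.68-fold (log2 0.75 ± 0.09, adjusted p = 2.08e-05, edgeR), and PE raised it 1.68-fold as well (0.75 ± 0.09, adjusted p = 4.13e-05, edgeR). Under PE the knockdown difference was 1.40-fold (0.49 ± 0.09, adjusted p = 5.09e-04, edgeR) and in knockdown cells the PE difference was 1.40-fold (0.48 ± 0.09, adjusted p = 5.54e-04, edgeR). The interaction was -0.26 with a 95% interval from -0.53 to 0.01 and was not called.

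Osmr (Gene ID 310132) encodes the oncostatin M receptor, which pairs with gp130. It was 6.99, 11.1 and 8.71 CPM in siNeg, 18.8, 17.1 and 18.8 in siSlc39a2, 13.5, 15.3 and 14.4 in siNeg PE and 28.8, 31.4 and 45.5 in siSlc39a2 PE. The 4 groups did not overlap, with siNeg lowest, then siNeg PE, siSlc39a2 and siSlc39a2 PE, and with the third siSlc39a2 PE sample above the other two. Osmr was 2.04-fold higher with knockdown (log2 1.03 ± 0.18, adjusted p = 4.30e-04, edgeR) and 2.45-fold higher with knockdown under PE (1.29 ± 0.17, adjusted p = 4.53e-05, edgeR). PE raised it 1.61-fold in siNeg cells (0.69 ± 0.18, adjusted p = 0.00753, edgeR) and 1.93-fold in knockdown cells (0.95 ± 0.17, adjusted p = 4.52e-04, edgeR). On log2(FPKM + 1) the PE difference in siNeg cells was 0.37 and was not called (limma, adjusted p = 0.0564). The interaction was 0.26, with an interval from -0.27 to 0.79. In mean FPKM, Osmr was in place 8 of the 10 genes in siNeg, 7 in siSlc39a2, 6 in siNeg PE and 4 in siSlc39a2 PE. Its samples overlapped those of neighbouring genes in every group but siSlc39a2 PE, so only that place was resolved beyond the spread.

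Lifr (Gene ID 81680) encodes the LIF receptor, which LIF and cardiotrophin-1 share. It was 11.7, 19.3 and 20.2 CPM in siNeg, 18.9, 19.3 and 19.9 in siSlc39a2, 15.8, 19.8 and 19.8 in siNeg PE and 12.0, 14.8 and 16.5 in siSlc39a2 PE. Replicate 1 was the lowest sample in every group, by the widest margin in siNeg. No comparison of Lifr was called. The closest was PE in knockdown cells, where the groups did not overlap (-0.42 ± 0.18, adjusted p = 0.0564, edgeR). That difference was called under each of the 8 other ways of fitting the data (adjusted p from 0.00605 to 0.0480, from edgeR, DESeq2 or limma) and without siSlc39a2 PE replicate 3 (-0.53, adjusted p = 0.0383, edgeR).

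Osmr and Lifr encode chains that each pair with gp130, and their ratio is given as a description chosen after the values were seen. Osm, the gene of oncostatin M, had at most 2 counts in any library and was not tested. The FPKM of Osmr divided by that of Lifr was 0.575, 0.580 and 0.445 in siNeg, 1.02, 0.864 and 0.913 in siSlc39a2, 0.832, 0.855 and 0.711 in siNeg PE and 2.22, 2.03 and 2.59 in siSlc39a2 PE. The siSlc39a2 PE samples lay above the samples of the other groups.

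**Figure D3:**
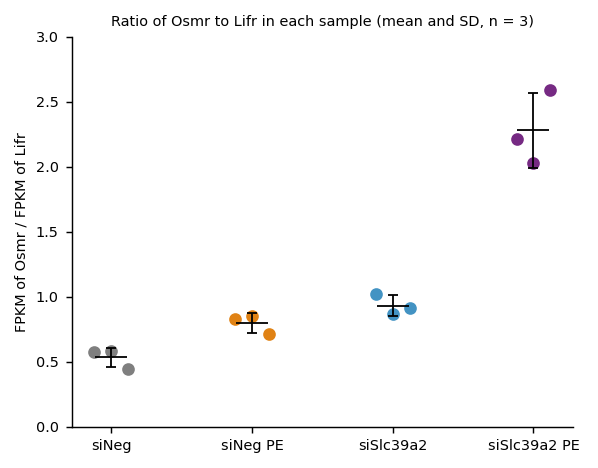
FPKM of Osmr divided by FPKM of Lifr (y axis, from 0) in each sample of the 4 groups. Points are samples, and lines with bars are the mean and SD of 3 samples. The mean was 0.533 in siNeg and 2.28 in siSlc39a2 PE.

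Il6r (Gene ID 24499) encodes the receptor chain that binds interleukin-6. It was 19.9, 21.0 and 25.4 CPM in siNeg, 21.4, 21.2 and 20.5 in siSlc39a2, 21.3, 21.8 and 19.7 in siNeg PE and 13.4, 12.9 and 14.5 in siSlc39a2 PE. The siSlc39a2 PE samples lay below every sample of the other groups, which overlapped. Il6r was lower with knockdown under PE (-0.62 ± 0.10, adjusted p = 1.46e-04, edgeR) and lower with PE in knockdown cells (-0.63 ± 0.10, adjusted p = 1.52e-04, edgeR). Without PE the knockdown difference was -0.07, with an interval from -0.27 to 0.13. The interaction was -0.55 ± 0.13 (adjusted p = 0.0421, edgeR), which was called with all 12 libraries but lost without replicate 1 or replicate 2 of any of the 4 groups, left out one at a time (-0.48 to -0.58, adjusted p from 0.0551 to 0.117, edgeR). It was also lost in limma on log2(FPKM + 1), at -0.39 (adjusted p = 0.0541), and on log2(FPKM + 0.1), at -0.50 (adjusted p = 0.0679).

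Stat3 (Gene ID 25125) encodes the transcription factor that the gp130 receptors activate. Its activation by phosphorylation is not visible in RNA. Stat3 was 413, 414 and 422 CPM in siNeg, 418, 397 and 367 in siSlc39a2, 544, 521 and 522 in siNeg PE and 455, 450 and 446 in siSlc39a2 PE. All PE samples lay above all untreated samples, and siSlc39a2 PE lay below siNeg PE. PE raised Stat3 1.27-fold in siNeg cells (log2 0.35 ± 0.06, adjusted p = 3.82e-04, edgeR) and 1.14-fold in knockdown cells (0.19 ± 0.06, adjusted p = 0.00982, edgeR). The latter call was lost without siSlc39a2 PE replicate 1 (0.16, adjusted p = 0.0593, edgeR) and without siSlc39a2 replicate 3 (0.11, adjusted p = 0.0811, edgeR). Knockdown under PE lowered Stat3 (-0.23 ± 0.06, adjusted p = 0.00347, edgeR), and without PE the difference was -0.08, with an interval from -0.20 to 0.04. The interaction was -0.15 and was called, of the alternatives run, only where library totals replaced TMM (-0.28, adjusted p = 0.0338, edgeR).

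Socs3 (Gene ID 89829) encodes the inhibitor that STAT3 induces and that blocks gp130 in return. It was 28.9, 27.7 and 27.3 CPM in siNeg, 32.4, 30.4 and 28.1 in siSlc39a2, 34.4, 33.7 and 32.1 in siNeg PE and 24.5, 24.7 and 24.3 in siSlc39a2 PE. PE raised Socs3 in siNeg cells and lowered it in knockdown cells, with no overlap in either case. The changes were 0.25 ± 0.07 (adjusted p = 0.00969, edgeR) and -0.31 ± 0.07 (adjusted p = 0.00231, edgeR), and the interaction was -0.56 ± 0.10 (adjusted p = 0.00722, edgeR). The interaction was called without each single library in turn, and it was -0.51 with an adjusted p of 0.0550 in limma on log2(FPKM + 0.1). The PE change in siNeg cells was not called by limma on log2(FPKM + 1), at 0.19 (adjusted p = 0.0699), or on log2(FPKM + 0.1), at 0.20 (adjusted p = 0.0954). Under PE, Socs3 fell by 0.45 ± 0.07 on the log2 scale with knockdown (edgeR, adjusted p = 1.62e-04). Without PE the knockdown difference was 0.12 and was not called (edgeR, adjusted p = 0.189). It was called without siSlc39a2 replicate 3 (0.22, adjusted p = 0.0274, edgeR) and with library totals in place of TMM (0.26, adjusted p = 0.00476, edgeR), and it was -0.02 and -0.03 in the limma fits on FPKM.

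The genes whose log2 CPM followed these patterns most closely over the 12 samples were named by the smallest root mean square distance after centring. Candidates were genes with a mean log2 CPM above 1. The nearest of many genes lie below the median by construction, and shared regulation was not tested. For Stat3 they were Itga3 (0.0600), Mast2 (0.0631) and Mpi (0.0660), where the median gene lay at 0.347. For Socs3, Baalc (0.0799) and Ado (0.0909) were among them, with a median of 0.340. For Il6st they were Fem1b (0.0799), LOC102556092 (0.0849) and Acsl5 (0.0895), with a median of 0.523. For Osmr they were Rlim (0.120), Dnttip2 (0.124) and Smarca5 (0.129), with a median of 0.780.

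Among 8 other ligands of the family or their partners, 7 were in the matrices and 3 were tested. Ebi3, a subunit of interleukin-27, fell by 0.64 ± 0.23 with PE in siNeg cells (edgeR, adjusted p = 0.0320). Of the 4 other receptor chains, 3 were tested, and 2 were lower with knockdown without PE, beside 26.4% of all genes. They were Cntfr, the receptor chain for ciliary neurotrophic factor (-0.74 ± 0.23, adjusted p = 0.0176, edgeR), and Il27ra, a receptor chain for interleukin-27 (-0.92 ± 0.15, adjusted p = 2.37e-04, edgeR), which was also lower with PE (-0.52 ± 0.15, adjusted p = 0.0106, edgeR). Most expected counts of Il27ra were not whole numbers, as occurs where reads are divided between genes, and its value is less certain.

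Of 13 kinases, phosphatases, proteases and inhibitors that act on the pathway, all were tested. With knockdown, 6 were higher and 1 lower, beside 22.8% and 26.4% of all genes, and under PE 8 were higher and 2 lower, beside 29.2% and 28.1%. PE raised 6 and lowered 3 in siNeg cells, beside 24% and 25.7%. Socs1, which encodes an inhibitor of Janus kinases related to SOCS3, was the most changed. It was 3.12, 3.22 and 2.32 CPM in siNeg, 24.8, 21.6 and 23.6 in siSlc39a2, 1.58, 1.69 and 1.14 in siNeg PE and 8.95, 9.04 and 9.85 in siSlc39a2 PE. Socs1 was 8.06-fold higher with knockdown (log2 3.01 ± 0.14, adjusted p = 2.96e-09, edgeR) and 6.29-fold higher under PE (2.65 ± 0.16, adjusted p = 2.59e-08, edgeR), and with PE it fell by 0.97 ± 0.17 on the log2 scale in siNeg cells. The knockdown difference of Socs3 without PE, 0.12, was not called. Jak2, a Janus kinase that gp130 can use, rose by 1.05 ± 0.18 with knockdown and by 0.61 ± 0.18 with PE. Adam17, a protease that sheds the interleukin-6 receptor, rose by 0.93 ± 0.16 with knockdown and by 0.68 ± 0.16 with PE (edgeR, adjusted p from 3.56e-04 to 0.0130 for these 4 differences).

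Of 25 genes known as STAT3 targets in at least some cells, 23 were in the matrices and 22 were tested. With knockdown 12 were higher and 2 lower, beside the 22.8% and 26.4% of all genes, and the median log2 fold change was 0.41. Many of these genes answer to other factors as well. Icam1, an adhesion molecule that NFkB also induces, went from 42.1, 41.7 and 42.7 CPM in siNeg to 127, 109 and 98.4 in siSlc39a2 (log2 1.40 ± 0.09, adjusted p = 3.52e-08, edgeR). Ccnd1, the cell-cycle gene of cyclin D1, rose by 1.10 ± 0.13 (edgeR, adjusted p = 1.94e-05). Lbp, the lipopolysaccharide-binding protein of the acute phase, fell from 19.9, 16.3 and 17.5 CPM to 4.81, 5.18 and 4.13 (-1.92 ± 0.12, adjusted p = 4.60e-08, edgeR). Under PE the list held 7 genes higher and 3 lower with knockdown, and the median was 0.10. All genes were called higher in 29.2% and lower in 28.1% there, so the share of higher targets was near the background.

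PE raised 10 of the 22 and lowered 5 in siNeg cells, beside 24% and 25.7% of all genes. Timp1, an inhibitor of matrix proteases, rose by 1.46 ± 0.09 (edgeR, adjusted p = 1.48e-07). Lbp rose by 1.37 ± 0.11 and Lcn2, the acute-phase protein lipocalin-2, by 1.20 ± 0.33 (edgeR, adjusted p = 1.52e-06 and 0.0101). Timp1 also had expected counts that were not whole. The interaction was called negative for 4 of the 22 genes, beside 1.88% of all genes, and positive for 1. The 4 were Cebpb (-0.69 ± 0.14), Cebpd (-0.55 ± 0.11), Junb (-0.76 ± 0.15) and Timp1 (-0.52 ± 0.12), with adjusted p-values from 0.0128 to 0.0342 in edgeR. Cebpb, Cebpd and Junb, immediate transcription factors of the acute-phase response, were higher with knockdown without PE (0.61, 0.62 and 0.61) and differed by -0.08, 0.07 and -0.15 under PE, where none was called. Myc was the positive one (0.51 ± 0.11, adjusted p = 0.0237, edgeR). Leaving out 1 library at a time left 2 to 4 of the 22 called negative. The count was 2 without siNeg PE replicate 1 or 2, siSlc39a2 PE replicate 2 or siSlc39a2 replicate 1, and it was 7 with library totals in place of TMM.

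**Figure D4:**
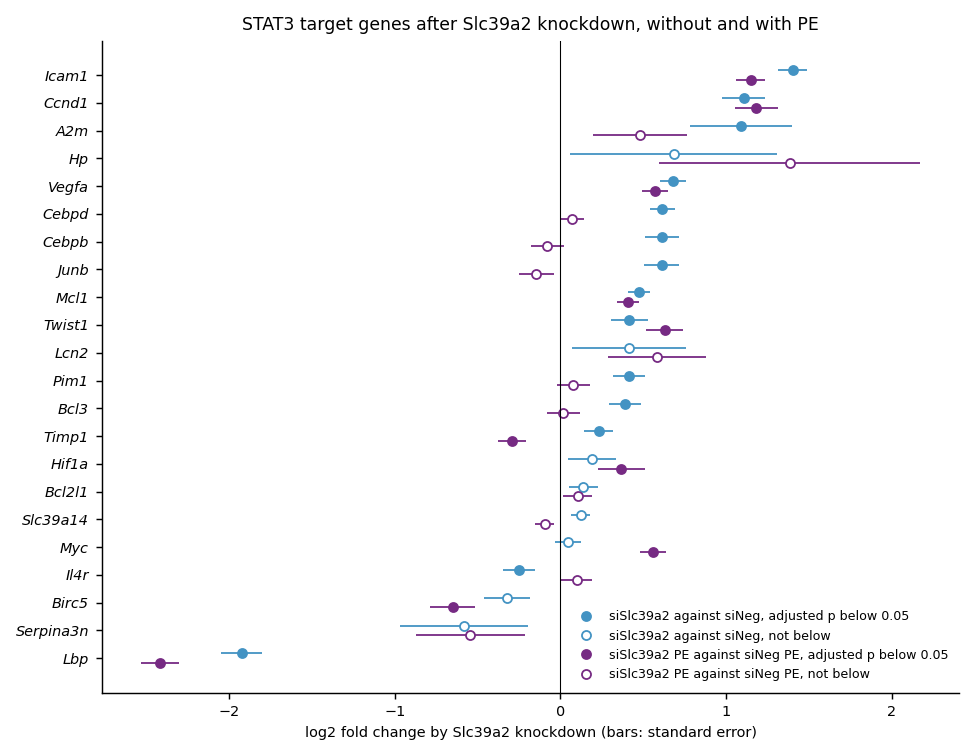
Log2 fold change with Slc39a2 knockdown (x axis) of 22 STAT3 target genes without PE (blue) and with PE (purple). Bars are standard errors, and filled points have an adjusted p below 0.05 in edgeR. Icam1 and Ccnd1 are higher and Lbp is lower in both, while Cebpb, Cebpd and Junb are higher without PE only, a difference that the interaction test called.

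Markers of the cells in the culture also differed between groups, though not in the same way for each cell type. The endothelial sums of siNeg, siNeg PE and siSlc39a2 overlapped. In bulk RNA, fewer cells of a type and less RNA per cell cannot be told apart. The summed CPM of 6 cardiomyocyte markers was 26600 to 28500 for siNeg, 20600 to 21900 for siNeg PE, 18200 to 19000 for siSlc39a2 and 15900 to 17100 for siSlc39a2 PE. This sum followed Myh6, whose mean went from 15858 CPM in siNeg to 8199 in siNeg PE. With PE in siNeg cells, Actn2 was called higher (0.43), Myh6 and Tnni3 lower, and Tnnt2, Myl2 and Ryr2 were not called. The summed CPM of 6 fibroblast markers was 11100 to 14200, 7370 to 9290, 4110 to 4300 and 2780 to 3790 in the same order. Transcripts of fibroblasts were thus present in all 12 libraries. Of the 6, 5 were called lower with knockdown both without and with PE, beside 26.4% and 28.1% of all genes. Col1a1 made up most of this sum, with a mean of 2385 CPM in siSlc39a2 PE. In siNeg cells, Col1a1 (-0.69) and Col1a2 (-0.63) were called lower with PE, whereas Pdgfra (0.74) and Dcn (0.44) were called higher. Lum and Postn were not called there. With PE in knockdown cells only the collagens Col1a1 and Col1a2 were called lower of the 6, whereas Pdgfra (0.34), Dcn (0.47) and Lum (0.35) were called higher. The 6 smooth muscle markers summed to 2130 to 2190, 1300 to 1650, 880 to 900 and 1320 to 1440 CPM. All 6 were called lower with knockdown without PE, beside 26.4% of all genes. Under PE 1 was called higher with knockdown, Cnn1 (0.50), and 1 lower, Smtn (-0.72), beside 29.2% and 28.1% of all genes. The interaction was called positive for 3 of them, Acta2, Tagln and Cnn1, beside 1.73% of all genes. With PE in siNeg cells Cnn1 was higher, by 2.57, while Acta2, Tagln and Smtn were called lower. Macrophage markers, 5 in the matrices, summed to 17.3 to 22.2, 11.2 to 12.8, 11.9 to 13.2 and 7.76 to 8.22. Cd68, Csf1r and Itgam were called lower with knockdown without and with PE, beside 26.4% and 28.1% of all genes. Only Cd68 and Csf1r were called lower with PE in siNeg and in knockdown cells, beside 25.7% and 29.3%. Adgre1 and Ptprc were called in none of these comparisons. The 6 endothelial markers summed to 7.80 to 9.81, 6.23 to 9.47, 6.82 to 9.96 and 5.71 to 6.98, with Emcn at 3 counts or fewer in every library of both knockdown groups. Kdr made up most of the endothelial sum, with a mean of 5.73 CPM in siNeg. Of the 5 tested, only Pecam1 was called with PE in siNeg cells (-1.27) and only Tie1 with knockdown without PE (-1.24). Both had at most 38 counts in siNeg. The part of these cell types in the changes of the 10 genes was not tested.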

How the data were processed

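RNA from 12 NRVM samples in 4 groups was sequenced. The authors deposited a matrix of expected counts per gene, of which 78.7% were whole numbers, and a matrix of FPKM, which divides by length and depth. The submitters' processing notes name HISAT, Bowtie2 and the Rnor_6.0 build. The counting program and annotation are not given in the sources used here. FPKM can shift with the transcript lengths assumed for a gene, and expected counts with reads that genes share.

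Expected counts were rounded, 4516 of 18483 genes were left out by filterByExpr, and 13967 were fitted with edgeR 4.0.16 (R 4.3.3; TMM, 4 group means, quasi-likelihood F-test, Benjamini-Hochberg adjustment). The threshold was an adjusted p below 0.05, and changes over 2-fold were also counted. The script was tested on simulated data with 200 changed genes. Limma 3.58.1 on quantile-normalized log2 of the deposited FPKM plus 1 or 0.1, DESeq2 1.42.0, RLE factors, no filter, a replicate block, fits of 2 groups, each replicate left out in turn and, added after the data were seen, library totals were the alternatives. The total of 24065539 to 28603854 counts per library limits precision for Il6 and Il11. The SE was the absolute log2 fold change divided by the square root of the F statistic of edgeR. The 95% intervals were built from that SE with the t distribution. These intervals are for a difference of group means and carry only the variation between these samples.

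The genes and lists were chosen with earlier results of these data known. Of each pathway list the text names, by rule, the 3 called genes with the largest change with knockdown and the 3 with PE, and Myc, Cebpb, Cebpd and Junb were added after their values were seen. Replicate pairs of every group differed by more than counting noise, so none was counted once. Same-numbered samples did not all correlate over 0.1 in any pair of groups, so the numbers were not taken to pair samples. This cutoff cannot decide whether preparations were shared. Replicate 1 of siNeg correlated at 0.315 with replicate 1 of siNeg PE and at -0.249 with replicate 3 of siNeg PE. Same-numbered samples of siNeg and siSlc39a2 correlated from -0.0107 to 0.025. Whether samples with 1 number share a preparation is not in the labels. Results for 2 genes that these rules name are not reported here.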

Additional observations from a re-analysis of the deposited data

Results flagged for a closer look

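For 2 of the 9 genes the effect of PE differed between siNeg and Slc39a2 knockdown cells in a test of the difference itself, the interaction term of edgeR over all 12 samples. For Socs3 the interaction was -0.56 (adjusted p = 0.00722), with every siNeg PE sample above every siNeg sample and every siSlc39a2 PE sample below every siSlc39a2 sample. For Il6r it was -0.55 (adjusted p = 0.0421), with 3 of 3 siSlc39a2 PE samples below all 9 others. That call was lost when replicate 1 or 2 of any group was left out (adjusted p from 0.0551 to 0.117, edgeR) and in both limma fits on FPKM (adjusted p = 0.0541 and 0.0679). Of all genes tested, 1.88% had a negative interaction called.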

How the results depend on the processing

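Of the counts of genes called, those for knockdown without PE (4), knockdown under PE (7) and PE in knockdown cells (6) stayed within 1.5 times under every alternative and every left-out library. The count for PE in siNeg cells went from 5 to 3 with limma on log2(FPKM + 1). The interaction count of 2 went to 1 with limma on log2(FPKM + 1) and to 0 on log2(FPKM + 0.1), and it was 1 to 2 when 1 library was left out. On log2(FPKM + 1) low genes change less by construction, as for Il6 (0.39) and Osmr (0.63) with knockdown. In the fit of siSlc39a2 and siNeg alone, Il6 did not pass the filter on low counts and was not tested.

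Direction turned in 19 settings, none of them a called difference. In fits of the whole data, the knockdown difference was 0.073 for Il6r and 0.064 for Stat3 with library totals and -0.024 and -0.026 for Socs3 in limma with 1 and 0.1 added, and the PE difference in siNeg cells was -0.079 and -0.12 for Lif and -0.065 and -0.076 for Lifr in the same limma fits. With 1 library left out, the knockdown difference ranged from -0.14 to 0.043 for Il6r (positive without siNeg replicate 3), -0.028 to 0.32 for Lifr (negative without siNeg replicate 1) and -0.12 to 0.019 for Stat3 (positive without siSlc39a2 replicate 3), and under PE from -0.076 to 0.25 for Ctf1 (negative without siSlc39a2 PE replicate 1). The PE difference in siNeg cells ranged from -0.021 to 0.14 for Lif (negative without siNeg PE replicate 3), -0.14 to 0.037 for Il6r (positive without siNeg replicate 3) and -0.097 to 0.25 for Lifr (negative without siNeg replicate 1). In knockdown cells it ranged from -0.11 to 0.035 for Lif (positive without siSlc39a2 replicate 1), and the Il6 interaction from -0.27 to 0.68, with -0.13 and -0.030 without siNeg PE replicate 3 and siSlc39a2 replicate 2. The cause was not tested. Of the other values for single genes, 619 kept direction and side of the threshold, 21 lost a call and 14 gained one.

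With library totals in place of TMM the median of all genes moved to 0.13 with knockdown and -0.11 in the interaction. Called genes that were higher then made up 64.9% with knockdown (46.4% with TMM), 58.4% with PE (48.3%) and 16.9% in the interaction (47.8%). The replicate block treats same-numbered samples as sharing a batch, which the labels neither state nor deny. With it, Lifr joined the calls under PE with knockdown (-0.36, adjusted p = 0.0193, edgeR) and with PE in knockdown cells (-0.44, adjusted p = 0.00605, edgeR). No other call of the 9 genes changed, and interaction calls over all genes went from 504 to 1053. They were 831 with DESeq2, 824 with limma on log2(FPKM + 1) and 886 with library totals, and 255 to 537 when 1 library was left out. Same-numbered samples correlated from -0.09 to 0.32 across groups. Depth limits Il6 (2 to 30 counts) and Il11 (3 to 12 counts).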
